A study of Mus musculus with 6 samples.

Results

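Long noncoding RNAs are long transcripts that are not known to encode a protein. The 8 described here are Neat1, Malat1, H19, Meg3, Gas5, Snhg1, Snhg12 and Kcnq1ot1, chosen by gene symbol and not by their values. Each symbol matched exactly 1 of the 53797 genes listed, with the same Ensembl gene in the annotation used. Their RNA was measured in MLO-Y4 cells, a murine line with osteocyte features, in 3 LIPUS-treated and 3 untreated Control samples from independent repeats of the experiment. LIPUS is low-intensity pulsed ultrasound, applied here for 20 min at 1.5 MHz and 30 mW/cm2, and RNA was taken 30 min after stimulation. According to the methods, treated and Control cells were wells of the same collagen-coated plates, with the transducers under the Control wells unplugged, and whether ultrasound reached the Control wells was not tested here. The study describes a Control library that stood apart from the others, and no Control value without it was analysed here. No genetic change or agent other than ultrasound was named for either group.

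The authors deposited 1 FPKM per gene and group, that is, fragments per kilobase of exon, scaled to the mapped reads of a library and pooled over the libraries of the group. No value of a single library was analysed, so no SD is given, no test between groups was made, and every difference below is a difference between 2 pooled values of unknown replicate error. Ratios are LIPUS over Control on the log2 scale after adding 0.1 FPKM to each value, so positive values are higher with LIPUS. In pooled RNA of a culture, a change in the number of cells that express a gene and a change in RNA per cell cannot be told apart. Of 12 markers of osteoblasts and osteocytes, 8 reached 1 FPKM. Past 1.5-fold were 4 of these 8, where 18.2% of all genes that reached 1 FPKM were past it. Higher with LIPUS were Dmp1, a matrix protein of osteocytes (7.65 FPKM with LIPUS and 3.04 FPKM in Control), Tnfsf11, which encodes RANKL (4.19 FPKM and 2.23 FPKM), and Bglap, which encodes osteocalcin (1.58 FPKM, listed at 0 in Control), and lower was Alpl, an alkaline phosphatase (190 FPKM and 293 FPKM). Of genes at a mean of 3 to 10 FPKM, the level of Dmp1 and Tnfsf11, 20.1% were past 1.5-fold. This share was 85.3% at 0.5 to 1 FPKM, the level of Bglap, and 4.42% at 100 to 300 FPKM, that of Alpl. Bglap reached 1 FPKM only with LIPUS. Pdpn, a marker of early osteocytes, had 402 FPKM with LIPUS and 295 FPKM in Control. Spp1 (osteopontin) had 4158 FPKM with LIPUS and 4514 FPKM in Control, and Col1a1 had 731 FPKM and 891 FPKM, whereas Sost, Mepe and Fgf23, which mark mature osteocytes, were listed at 0 in both groups. A value of 0 may be a failed estimate in this table, since mt-Nd3, a mitochondrial gene used by every cell, was also listed at 0 in both groups, and mt-Co2 at 9.22 FPKM and 5.52 FPKM beside 6667 FPKM and 6497 FPKM for mt-Co1.

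The 8 RNAs fall into 3 kinds. Neat1 and Malat1 are nuclear RNAs that lie next to each other. Neat1 is the scaffold of paraspeckles, nuclear bodies that hold RNA-binding proteins, and Malat1 gathers in nuclear speckles, which store splicing factors. Gas5, Snhg1 and Snhg12 are host genes of small nucleolar RNAs (snoRNAs), which are cut from their introns and guide the modification of ribosomal RNA, while their spliced exons are exported and are known targets of nonsense-mediated decay. H19, Meg3 and Kcnq1ot1 are imprinted, so that only the allele of 1 parent is transcribed, and H19 and Meg3 have been studied in osteoblast differentiation.

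The order of abundance was the same in both groups. Gas5 had the highest FPKM, followed by Snhg1, Malat1, Snhg12, Neat1, H19 and Kcnq1ot1, and Meg3 was listed at 0. In Control, Gas5 was 2.57-fold above Snhg1, Snhg1 1.82-fold above Malat1, Malat1 1.94-fold above Snhg12, and Snhg12 1.35-fold above Neat1. With LIPUS the same steps were 2.84-fold, 1.48-fold, 1.66-fold and 1.36-fold. A gap of 27.9-fold in Control and 20.3-fold with LIPUS separated Neat1 from H19. Without replicate values it could not be determined which neighbours in this order differ beyond their spread.

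**Figure D1:**
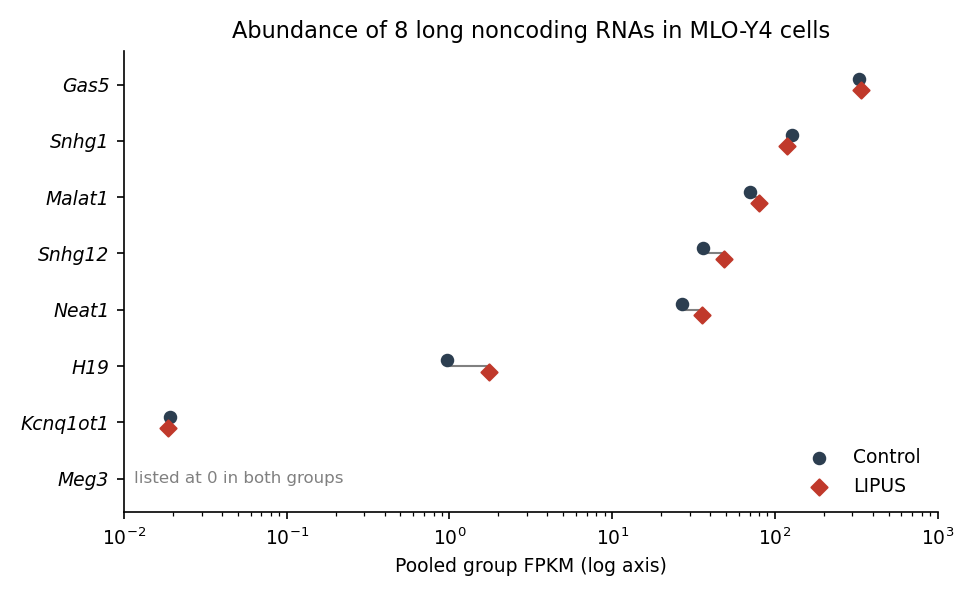
Pooled FPKM of the 8 long noncoding RNAs on a log axis, with circles for Control and diamonds for LIPUS, 1 value per group and no error bars because no library values were analysed. Gas5 sits highest at 327 and 338 FPKM, Kcnq1ot1 lowest of the RNAs above 0 at 0.0193 and 0.0186 FPKM, and the order is the same in both groups.

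Against the other genes, the abundant members ranked high. Among all genes listed, Gas5 ranked 258 in Control and 270 with LIPUS, Snhg1 725 and 798, Malat1 1384 and 1222, Snhg12 2691 and 2025, and Neat1 3517 and 2714. Among the genes that the annotation gives a long noncoding biotype, Gas5 ranked 2 in Control, behind Cct6a, and 1 with LIPUS. Cct6a is known to encode a chaperonin subunit, so these biotypes also take in some coding genes.

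In the comparison of LIPUS with Control, 6 of the 8 RNAs reached an FPKM of 1 in at least 1 group. Of these, 5 had a ratio above 0 and 1 below, with a median of 0.30, while the median over all 11999 genes that reached an FPKM of 1 was -0.00047. Past 1.5-fold there was 1 of 6, H19, higher with LIPUS, whereas 18.2% of all such genes were past 1.5-fold in either direction, 8.98% as higher and 9.26% as lower values. H19 reached 1 FPKM only with LIPUS (1.76 FPKM, 0.962 FPKM in Control), so its higher value brought it among the 6. The median of 0.30 includes it. Past 1.3-fold were 3 of 6, H19, Neat1 and Snhg12, all higher with LIPUS, beside 31.1% of all genes in either direction and 15.3% as higher values, and past 2-fold were 0 of 6, beside 8.02% of all genes. The share of genes past 1.5-fold depended on abundance, from 41.2% at a mean of 1 to 3 FPKM to 4.92% at 30 to 100 FPKM, so each member is set below beside genes of its own abundance.

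**Figure D2:**
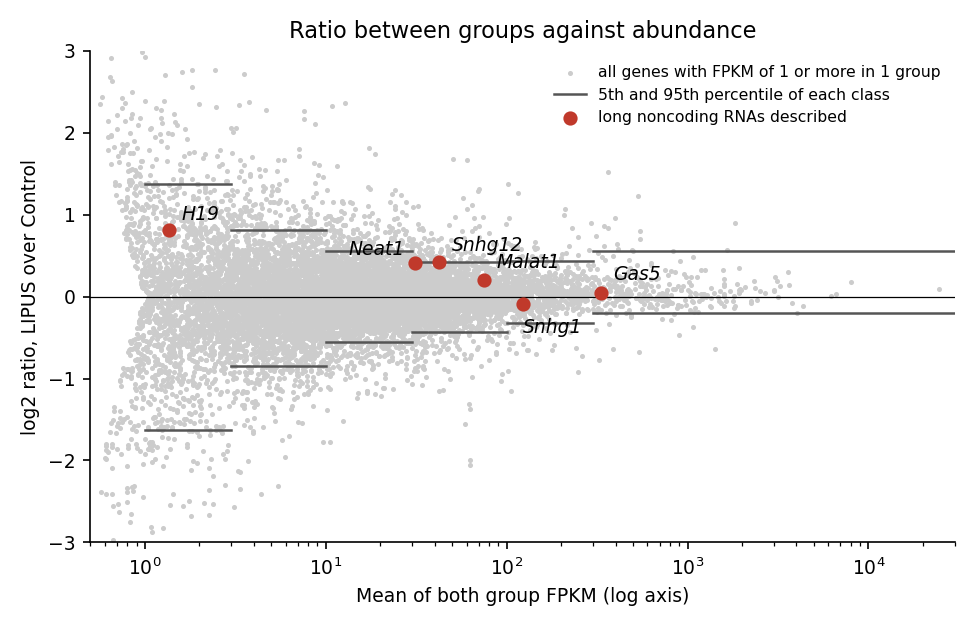
Log2 ratio of LIPUS over Control against the mean FPKM of both groups (log axis) for 11999 genes in grey, with the 6 long noncoding RNAs that reached 1 FPKM in red and the 5th and 95th percentiles of each abundance class as lines. All 6 lie between the percentiles of their class, with Neat1 (0.41) and Snhg12 (0.42) close to the upper line at 0.43. The axis leaves out 244 genes with ratios beyond 3 in either direction, and the lines of the class from 0.5 to 1 FPKM lie outside it.

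Neat1 lies on chromosome 19 of GRCm38 from 5824708 to 5845478 on the minus strand and is annotated as a lincRNA of 20771 bases, with 4 transcripts of 711 to 20771 bases. Malat1 lies on the same chromosome and strand from 5795690 to 5802672, also a lincRNA, with 4 transcripts of 485 to 6983 bases. The gap between them is 22.0 kb, with Malat1 downstream of Neat1. The 3′ ends of Malat1 and of the long Neat1 transcript are known to be cut by RNase P and protected by a triple helix of U-rich stretches with a genome-encoded A-rich tract, in place of a poly(A) tail, whereas the short Neat1 transcript is polyadenylated. These ends are shown because the libraries were prepared with an mRNA kit that selects poly(A) RNA, and whether the tract lets these RNAs enter a library was not tested. The sequences come from the GENCODE M21 transcripts, 110 bases each, written with T for U, for Malat1 from chr19:5795982-5796091 and for Neat1 from chr19:5824708-5824817, both on the minus strand. Capitals mark runs rich in T and the A-rich tract, and the marked runs are not all U-rich stretches of the triple helix.
Malat1: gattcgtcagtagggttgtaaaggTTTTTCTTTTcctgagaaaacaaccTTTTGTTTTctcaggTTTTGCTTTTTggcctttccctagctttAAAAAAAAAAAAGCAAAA
Neat1: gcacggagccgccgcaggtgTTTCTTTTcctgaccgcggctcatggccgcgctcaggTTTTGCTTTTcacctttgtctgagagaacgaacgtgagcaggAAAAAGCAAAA
The tract ends in GCAAAA in both RNAs, after 12 A bases in Malat1 and 5 in Neat1. The longest run that both windows share is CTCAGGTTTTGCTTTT, 16 bases around the second marked run of Neat1. The long Neat1 transcript ends with the tract, while the annotated Malat1 transcript goes on for 292 bases after it. No annotated transcript of the other 6 RNAs holds 5 or more A bases followed by GCAAAA.

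Neat1 had 35.7 FPKM with LIPUS and 26.8 FPKM in Control, 1.33-fold higher with LIPUS (log2 ratio 0.41). In the class of 30 to 100 FPKM, which holds 2238 genes, 6.79% of genes were past 1.3-fold as higher values, and the middle 90% of log2 ratios ran from -0.43 to 0.43. Neat1 thus lay at the upper edge of its class, within that range. This position depends on the class limit, since the mean of Neat1 lies just above 30 FPKM. In the class of 10 to 30 FPKM, which holds its Control value, the middle 90% ran from -0.55 to 0.56. There 10.6% of genes were past 1.3-fold as higher values. The gene table gives a single value for the short and the long transcript, so it cannot be read from it which of them differed.

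Malat1 had 80.4 FPKM with LIPUS and 70.1 FPKM in Control, 1.15-fold higher with LIPUS (log2 ratio 0.20). This is the same direction as Neat1 with a smaller ratio, and it lies inside the middle 90% of the same class. A difference between the ratios of Neat1 and Malat1 was not tested, since no replicate values were analysed.

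Ribosomal RNAs and Rn7sk, which a poly(A) selection mostly removes, were set beside Neat1 and Malat1 and were chosen after their values were seen. AY036118 and Gm42418, genes that overlap on opposite strands and have similarity to ribosomal RNA, had 278 FPKM and 65.6 FPKM with LIPUS against 139 FPKM and 45.8 FPKM in Control. The mitochondrial ribosomal RNAs were lower with LIPUS, with 76.3 FPKM and 106 FPKM for mt-Rnr1 and 102 FPKM and 161 FPKM for mt-Rnr2, LIPUS given first. Rn7sk, a nuclear RNA that controls transcription elongation, had 5.25 FPKM and 4.64 FPKM. Their part in the ratios of Neat1 and Malat1 was not tested.

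Genes around Neat1 and Malat1 gave the following values. Frmd8, upstream of Neat1 on the same strand, had 3.29 FPKM with LIPUS and 2.88 FPKM in Control. Downstream of Malat1, Ltbp3, which encodes a binding protein of latent TGF-beta, had 191 FPKM and 159 FPKM. Past 1.5-fold were only low genes, Slc25a45 at 1.15 FPKM and 0.509 FPKM and Gm37376 at 2.26 FPKM and 0.832 FPKM. Gm37376 lies inside Malat1 on the opposite strand. The kit keeps the strand, but whether the FPKM used it was not given in the sources used here, so reads of this overlap could belong to either gene.

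**Figure D3:**
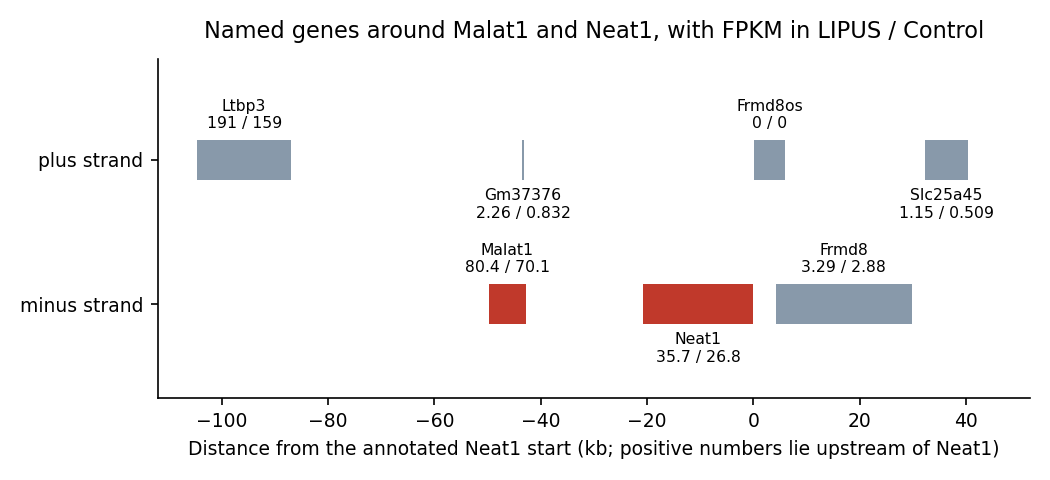
Named genes around Malat1 and Neat1 by distance from the annotated Neat1 start in kb, drawn to scale on their strands, with FPKM in LIPUS / Control. The genes named in the text are drawn, plus the antisense gene Frmd8os at 0 in both groups, and Neat1 (35.7 and 26.8) and Malat1 (80.4 and 70.1) are in red.

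The partner proteins of these nuclear bodies had median ratios just below 0, whereas Neat1 and Malat1 were above it. All 20 paraspeckle proteins were above 1 FPKM, and their median ratio was -0.09, with 8 above 0 and 12 below. Past 1.5-fold was 1 of 20, Hnrnph3, an RNA-binding protein needed for paraspeckles, with 9.83 FPKM with LIPUS and 5.93 FPKM in Control (log2 ratio 0.72). Of all genes, 18.2% were past 1.5-fold, and of those at 3 to 10 FPKM, the level of Hnrnph3, 20.1%. The most abundant were Hnrnpk (449 FPKM with LIPUS, 523 FPKM in Control) and Hnrnpa1 (445 FPKM and 527 FPKM), and the lowest ratio belonged to Ewsr1 (328 FPKM and 412 FPKM, -0.33). Sfpq and Nono, the core proteins that bind Neat1 directly and that were singled out after their values were seen, had 262 FPKM and 259 FPKM, and 169 FPKM and 147 FPKM. Of the 18 nuclear speckle proteins, 0 were past 1.5-fold, and their ratios ran from -0.35 (Acin1, 78.3 FPKM with LIPUS and 99.6 FPKM in Control) to 0.13 (U2af1, 157 FPKM and 144 FPKM) with a median of -0.055. Srsf5 (276 FPKM in both groups) and Srsf2 (262 FPKM and 255 FPKM), splicing factors rich in serine and arginine, were the most abundant. Most of these proteins lie above 30 FPKM, and at 30 to 100 FPKM 4.92% of all genes were past 1.5-fold.

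Gas5 lies on chromosome 1 from 161034422 to 161038539, Snhg1 on chromosome 19 from 8723475 to 8726443, and Snhg12 on chromosome 4 from 132308623 to 132311024, all on the plus strand. Gas5 has 25 annotated transcripts, Snhg1 18 and Snhg12 10. Genes of this kind are known for a TATA box and for a start within a pyrimidine tract (5′ TOP), a feature they share with ribosomal protein genes. The start sites are shown because this feature is known to be shared by snoRNA host genes. The windows below are from RefSeq on GRCm38.p6, from 60 bases before the annotated start to 30 bases from it, and the capitals mark a match to TATATA or TATAAA on either strand and the longest run of C and T around the start.
Gas5: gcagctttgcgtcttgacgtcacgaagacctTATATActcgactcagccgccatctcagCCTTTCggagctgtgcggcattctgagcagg
Snhg1: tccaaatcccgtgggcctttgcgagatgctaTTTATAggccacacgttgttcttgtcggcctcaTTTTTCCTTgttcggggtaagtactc
Snhg12: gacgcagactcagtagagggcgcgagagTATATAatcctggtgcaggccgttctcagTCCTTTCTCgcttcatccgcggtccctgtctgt
These windows lie at chr1:161035106-161035195, chr19:8723427-8723516 and chr4:132308618-132308707. The TATA-like match begins 29 bases before the start in Gas5 and in Snhg1, where it is on the reverse strand, and 32 bases before it in Snhg12. The run of C and T holds 6 bases in Gas5, 9 in Snhg1 and 9 in Snhg12. In Gas5 and Snhg12 it spans the annotated start, while in Snhg1 it lies wholly after the start. RefSeq gives Gas5 another start at 161034601, around which the longest such run holds 3 bases and no TATA-like match was found.

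RefSeq windows of 300 bases were matched for 6 of the 8 RNAs, and those of Neat1 and H19 were not analysed here. A run of 6 or more C and T, from 5 bases before to 20 bases after the start, was found for the 3 snoRNA hosts and for none of Malat1, Meg3 and Kcnq1ot1. The same run occurs in 22.3% of all 32851 windows and in 7 of 15 other snoRNA host genes. TATAAA or TATATA, which can overlap, occurred in 4 of the 6 RNAs (Gas5, Meg3, Snhg1 and Snhg12), in 5 of the 15 other snoRNA host genes and in 17.1% of all windows. TATATA alone, the match marked in Gas5 and Snhg12, occurred in 0 of these 15 and in 5.67% of all windows. The cAMP response element TGACGTCA occurred in Gas5, 46 bases before the start, and in Meg3, 57 bases before it, and in 1.79% of all windows. Its shorter form TGACG, which these matches contain, occurred in 5 of the 6 RNAs and in 20.8% of windows. TGACTCA, bound by AP-1, and GCGTGGGCG, bound by Egr1, occurred in 0 of the 6, against 5.2% and 0.612% of all windows. Each motif was searched on both strands, and a match says only that these letters are present.

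Gas5 had 338 FPKM with LIPUS and 327 FPKM in Control, a log2 ratio of 0.05. Snhg1 had 119 FPKM and 127 FPKM, a log2 ratio of -0.09. Snhg12 had 48.6 FPKM and 36.2 FPKM, 1.34-fold higher with LIPUS (log2 ratio 0.42). The 3 host genes thus did not share a ratio. Gas5 and Snhg1 lay near 0, Gas5 between the quartiles of its abundance class (-0.05 to 0.18) and Snhg1 just below those of its own (-0.08 to 0.17), while Snhg12 lay next to the upper limit of the middle 90% of its class (0.43). With the values rescaled to the same sum in both groups, the ratio of Gas5 was 0.0035.

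The snoRNAs themselves are listed as genes of their own, 23 of them inside these hosts, with lengths of 60 to 137 bases. Only Snord22, 126 bases within Snhg1, was above 0, with 197 FPKM with LIPUS and 326 FPKM in Control (log2 ratio -0.73), beside a ratio of -0.09 for Snhg1. Over the whole table, 13 of 1507 snoRNA genes were above 0. RNAs this short are mostly lost when poly(A) libraries are made, and FPKM are uncertain for features shorter than a fragment, so these values are no measure of snoRNA output.

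Neighbours of the host genes gave the following values. Slc3a2, an amino acid transporter subunit that starts 0.106 kb from Snhg1 on the opposite strand, had 107 FPKM with LIPUS and 114 FPKM in Control, and its ratio (-0.10) was close to that of Snhg1. On the other side, Wdr74 had 33.5 FPKM and 32.3 FPKM, Stx5a 30.1 FPKM and 28.5 FPKM, Nxf1 86.7 FPKM and 77.6 FPKM, and Taf6l 16.2 FPKM and 13.5 FPKM. Next to Snhg12, Trnau1ap, which lies 0.739 kb downstream on the opposite strand, had 23.6 FPKM with LIPUS and 30.4 FPKM in Control (-0.36), against the direction of Snhg12. The other host gene of this region, Snhg3, had 47.3 FPKM and 48.5 FPKM, and Rcc1, which overlaps it on the same strand, 36.1 FPKM and 39.4 FPKM. Farther genes near Snhg12 were Taf12 (25.5 FPKM and 31.1 FPKM), Gmeb1 (13.9 FPKM and 12.9 FPKM) and Phactr4 (16.02 FPKM and 12.8 FPKM). Near Gas5, Cenpl had 5.33 FPKM with LIPUS and 5.73 FPKM in Control, and Klhl20 7.43 FPKM and 7.05 FPKM. Zbtb37 overlaps the first start of Gas5 on the opposite strand and had 1.94 FPKM and 1.752 FPKM. Over all 8 RNAs, 25 neighbours within 50 kb reached 1 FPKM and 7 were past 1.5-fold, where 18.2% of all genes were past it. Besides those named, these 7 include Gm17300 (3.801 FPKM and 6.24 FPKM) and the snoRNAs Snora73b (4.39 FPKM and 8.37 FPKM) and Snora73a (8.74 FPKM with LIPUS, listed at 0 in Control), all within the bounds of Snhg3, and Snord22. The share past 1.5-fold was 85.3% at a mean of 0.5 to 1 FPKM (Slc25a45) and 41.2% at 1 to 3 FPKM (Gm37376). It was 20.1% at 3 to 10 FPKM (Gm17300, Snora73a and Snora73b) and 4.42% at 100 to 300 FPKM (Snord22). Slc25a45, Gm37376 and Snora73a reached 1 FPKM only with LIPUS.

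Other snoRNA host genes lay mostly below 0. Of 19 symbols, 17 were listed, in 18 rows because Dancr has 2, and 16 rows reached 1 FPKM. Their median ratio was -0.19, with 5 above 0 and 11 below. Past 1.5-fold were 2 of 16, both lower with LIPUS, where 18.2% of all genes were past it in either direction and 9.26% as lower values. Both were rare, at levels where such ratios were common, Snhg10 with 1.02 FPKM with LIPUS and 2.205 FPKM in Control and 1 of the rows of Dancr with 0.167 FPKM and 1.42 FPKM. The other row of Dancr had 5.11 FPKM and 5.84 FPKM. Snhg8 (100 FPKM with LIPUS and 98.6 FPKM in Control) and Zfas1 (63.0 FPKM and 71.8 FPKM) were the most abundant by the mean of both groups, and Snhg15 had the highest ratio (40.0 FPKM and 28.8 FPKM, 0.47), next to that of Snhg12. Past 1.3-fold were 5 of the 16, against 31.1% of all genes. The proteins that bind snoRNAs or carry out nonsense-mediated decay were 19 genes with a median ratio of -0.14, of which 0 were past 1.5-fold, where 18.2% of all genes, 8.66% of genes at 10 to 30 FPKM and 4.92% at 30 to 100 FPKM were past it. Their ratios ran from -0.48 for Gar1, a protein of H/ACA snoRNPs (110 FPKM with LIPUS and 153 FPKM in Control), to 0.25 for Nhp2, another protein of the same particles (138 FPKM and 116 FPKM). Nop58 (385 FPKM and 345 FPKM) and Nop56 (232 FPKM and 268 FPKM), core proteins of C/D snoRNPs, were the most abundant and lay on either side of 0.

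**Figure D4:**
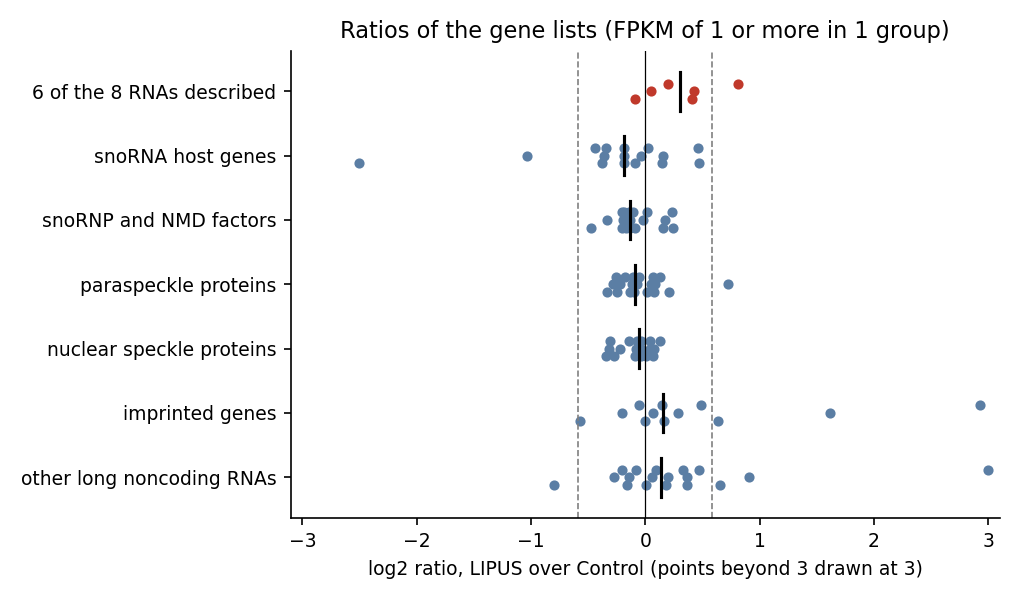
Log2 ratios of LIPUS over Control for genes that reached 1 FPKM, 1 point per gene, by list, with the list's median as a black bar and 1.5-fold as dashed lines. The 6 long noncoding RNAs (red) have a median of 0.30, with H19 among them through its LIPUS value alone. The lists of partner proteins lie within 1.5-fold except Hnrnph3, while the points far from 0 in the other lists are mostly genes of few FPKM. Rmrp, listed at 0 in Control, is drawn at the limit of 3.

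H19 lies on chromosome 7 from 142575529 to 142578143 on the minus strand and gives rise to miR-675, whose precursor gene Mir675 was listed at 0 in both groups. H19 had 1.76 FPKM with LIPUS and 0.962 FPKM in Control, 1.83-fold higher with LIPUS (log2 ratio 0.81). At this abundance 41.2% of 1731 genes were past 1.5-fold, and the middle 90% of ratios ran from -1.62 to 1.37, so the ratio of H19 lay well within those of genes of its level. With 1 FPKM added in place of 0.1 the ratio was 0.49, below 1.5-fold. Mrpl23, which lies 34.8 kb downstream of H19 and encodes a mitochondrial ribosomal protein, was the only gene within 50 kb to reach 1 FPKM, with 40.9 FPKM and 41.2 FPKM. Igf2, the growth factor gene that shares enhancers with H19 and is transcribed from the other parental allele, had 1.27 FPKM with LIPUS and 0.347 FPKM in Control. Both genes of this imprinted pair were thus rare and higher with LIPUS, at levels where large ratios were common.

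Meg3, on chromosome 12 from 109541001 to 109571726 on the plus strand, was listed at 0 FPKM in both groups, and no fold is given. Of the other genes of its imprinted domain, Dlk1, Rtl1, Rian and Dio3 were also listed at 0 in both groups, and Mirg at 0 with LIPUS and 0.184 FPKM in Control.

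Kcnq1ot1 lies on chromosome 7 from 143203458 to 143296549 on the minus strand, within Kcnq1 and antisense to it, and is an unspliced RNA of 93092 bases that is known to silence its neighbours on the paternal allele. It had 0.0186 FPKM with LIPUS and 0.0193 FPKM in Control. Kcnq1, on the other strand, was listed at 0 in both groups. Among the genes of the domain, Cdkn1c, Phlda2, Ascl2 and Tspan32 were listed at 0 in both groups and Slc22a18 had 0.526 FPKM and 0.692 FPKM. Those at the edges were well expressed, with 242 FPKM with LIPUS and 219 FPKM in Control for Cd81, 45.7 FPKM and 37.5 FPKM for Nap1l4, and 31.2 FPKM and 20.0 FPKM for Tssc4 (log2 ratio 0.64).

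Over 30 imprinted genes of these and other domains, 14 were listed at 0 in both groups, 4 stayed below 1 FPKM and 12 reached it, with a median ratio of 0.15. Past 1.5-fold were 3 of 12, all higher with LIPUS, where 18.2% of all genes were past it in either direction and 8.98% as higher values. The direction held only for genes that reached 1 FPKM. Among those below it, 3 more were past 1.5-fold, all lower with LIPUS, namely Mirg, Mest and Nespas, each listed at 0 with LIPUS and at 0.184 FPKM, 0.194 FPKM and 0.263 FPKM in Control. Besides Tssc4 and Igf2, the gene of the 12 past 1.5-fold was Airn, the RNA that silences Igf2r, with 1.85 FPKM with LIPUS and 0.156 FPKM in Control. Igf2 and Airn reached 1 FPKM only with LIPUS, so this limit admitted them through their higher value. Of genes at a mean of 0.5 to 1 FPKM, the level of Igf2, 85.3% were past 1.5-fold. At 1 to 3 FPKM, the level of Airn, it was 41.2%. Airn overlaps Igf2r on the opposite strand, which had 9.54 FPKM and 9.57 FPKM. Gnas, the gene of a stimulatory G protein subunit, was next to Cd81 in abundance (234 FPKM and 243 FPKM), and the lowest ratio belonged to Peg10 (17.5 FPKM and 26.1 FPKM, -0.58).

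Of 37 other long noncoding RNAs with a name in use, 33 were listed, 8 at 0 in both groups, and 18 reached 1 FPKM. Their median ratio was 0.13, with 12 above 0 and 6 below. Past 1.5-fold were 4 of 18, or 22.2%, all rare, where 18.2% of all genes and 50.3% of all long noncoding genes were past it. Dubr had 3.66 FPKM with LIPUS and 1.90 FPKM in Control, Mir99ahg 5.95 FPKM and 3.76 FPKM, and Ftx, a regulator of Xist, 0.665 FPKM and 1.23 FPKM. Rmrp, the RNA of a mitochondrial and nucleolar RNase, had 2.01 FPKM with LIPUS and was listed at 0 in Control. The most abundant were 1810058I24Rik (70.9 FPKM with LIPUS and 61.9 FPKM in Control) and Sra1 (60.4 FPKM and 48.2 FPKM). The list was drawn up by name, and Sra1 has no long noncoding biotype in the annotation used.

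Long noncoding RNAs as a class were past 1.5-fold in 50.3% of 648 genes, against 14.6% of 10872 protein-coding genes, with medians of -0.01 and 0.00059. At 30 to 100 FPKM, where Neat1, Malat1 and Snhg12 lie, it was 4 of 30 long noncoding genes against 98 of 2189 protein-coding genes, and none of these 3 RNAs was among the 4. At 1 to 3 FPKM, the level of H19, it was 52.9% against 36.1%. No test of these shares was made, since genes are not replicates.

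**Figure D5:**
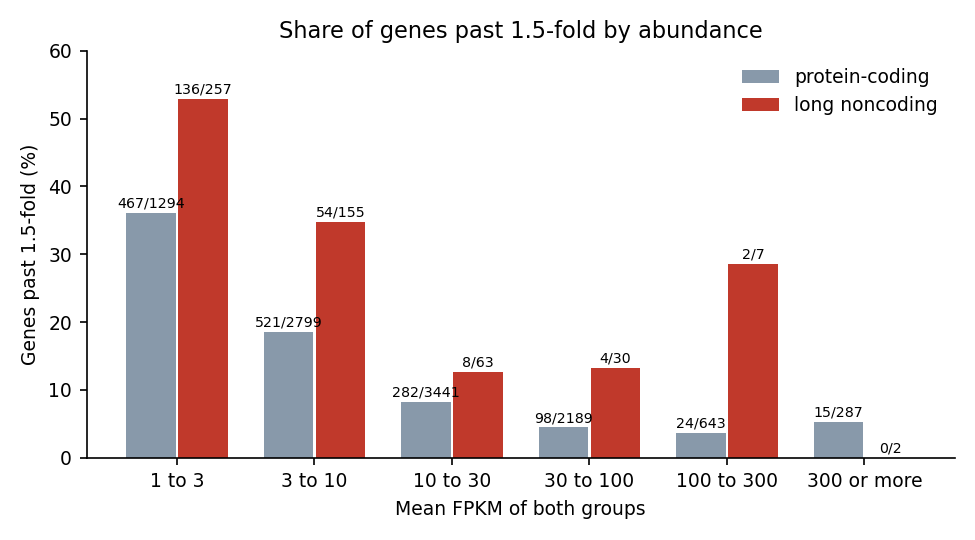
Percent of genes past 1.5-fold in either direction by mean FPKM of both groups, for protein-coding (grey) and long noncoding (red) biotypes, with the number past 1.5-fold over the number of genes above each bar. The share was 36.1% and 52.9% at 1 to 3 FPKM and 4.48% and 13.3% at 30 to 100 FPKM, and the long noncoding bars from 100 FPKM upward rest on 7 and 2 genes.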

How the data were processed

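RNA of 3 LIPUS-treated and 3 Control samples of MLO-Y4 cells was sequenced from stranded mRNA libraries. According to the methods and the submitters' processing notes, reads were trimmed with Trimmomatic 0.36 and aligned to GRCm38 by TopHat (2.1.0), which ran bowtie (2.2.6.0). The authors deposited FPKM computed by Cufflinks with Ensembl transcripts (version 2.2.1 in the methods, 2.1.1 in the processing notes) in a Cuffdiff table with 1 pooled value per group. The columns of the authors' own comparison (log2 fold change, test statistic, p-value, q-value and call) were not used. Depth cannot be read from the table.

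Here, log2 ratios with a pseudocount of 0.1 FPKM were computed for 11999 genes with an FPKM of 1 or more in 1 group, of which 222 were at 0 in the other group. A threshold of 1.5-fold describes size and is not a test. Positions, lengths and biotypes are from GENCODE M21, of the same build, matched by Ensembl identifier for 53616 genes. The symbol in the table differed from that of GENCODE for 1591 of them. Promoter windows are from RefSeq. The genes and lists were chosen with earlier results of these data known. Named were the 8 RNAs, and of each of 6 lists the genes past 1.5-fold, the 2 most abundant and the highest and lowest ratio, and neighbours within 50 kb at 1 FPKM or more, with exceptions stated. Some neighbours are not reported here. Python 3.11.15, numpy 2.4.6, pandas 2.3.3 and matplotlib 3.10.9 were used, and the ratio step was tested on simulated data. Alternatives were other thresholds, pseudocounts, minimum FPKM, rescaling, centring and distances.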

Additional observations from a re-analysis of the deposited data

How the results depend on the processing

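No paired analysis was possible because the table holds no value of a single library, and for the same reason leaving out each replicate was not run. Among the alternative log2 ratios of the 8 RNAs, 38 moved by less than 0.1 and 1 did not, that of H19, at 0.49 with a pseudocount of 1. Meg3, at 0 in both groups, has no ratio without a pseudocount. The count of the 8 RNAs past 1.5-fold was 0 past 2-fold, 3 past 1.3-fold (H19, Neat1 and Snhg12), 0 at 10 FPKM or more and 0 with a pseudocount of 1. At 10 FPKM or more, the count past 1.5-fold was 0 for snoRNA hosts, paraspeckle proteins and other long noncoding RNAs, and 1 for imprinted genes. Of all genes, 8.66% at a mean of 10 to 30 FPKM and 4.92% at 30 to 100 FPKM were past it. Past 1.3-fold were 5 of 16 snoRNA hosts, 1 of 19 factors of snoRNPs or decay and 5 of 12 imprinted genes, beside 31.1% of all genes. Past 2-fold were 0 of 20 paraspeckle proteins and 1 of 18 other long noncoding RNAs, beside 8.02% of all genes. With all genes above 0 the count was 6 for imprinted genes, and with a pseudocount of 1 it was 2 for other long noncoding RNAs. No share over all genes was computed with these settings. Within 100 kb, 41 neighbours reached 1 FPKM. The 8 ranks in Control kept within 1.5 times when loci of 200 bases or less were left out. The table holds no read counts, and no counting error is given for the low values of H19, Kcnq1ot1 and Meg3.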

Other observations

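Among the abundant long noncoding genes outside the lists, chosen after their values were seen, Gm28592 had 311 FPKM with LIPUS and 187 FPKM in Control (log2 ratio 0.73). It and AY036118 were the 2 of 7 long noncoding genes at 100 to 300 FPKM that were past 1.5-fold. Gm28037 had 24.1 FPKM with LIPUS and 101 FPKM in Control (-2.06), and 1110038B12Rik had 63.9 FPKM and 92.3 FPKM (-0.53). Gm44170, an antisense gene, had 117 FPKM and 124 FPKM, and 2410006H16Rik had 122 FPKM and 112 FPKM, both within 1.5-fold like Snhg1 at a similar level.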
